A study of Drosophila melanogaster with 16 samples.

Results

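The Cpr genes of Drosophila melanogaster were followed across 4 groups of embryos on 16 single-colour expression arrays. Members were the probe sets whose identifier stem, a CG number or an older name, led to a fly symbol made of Cpr and a number. Cpr alone, the P450 reductase, and the Ccp84A genes were not members. The rule gave 61 of 14070 probe sets, of which 59 had 1 symbol each and stood for 58 of the 10867 genes named on the array. The other two had a pair of Cpr symbols each, Cpr65Av with Cpr65Aw and Cpr49Aa with Cpr49Ab. The name table lists 70 Cpr symbols, and 8 of them had no probe set of their own here (Cpr30F, Cpr31A, Cpr35B, Cpr60D, Cpr65Au, Cpr65Ax1, Cpr65Ax2 and Cpr65Ay). The rule itself used names only and no measured value, but the members were chosen with earlier results of these data known.

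Cpr genes encode cuticle proteins with the Rebers-Riddiford region, a conserved stretch that binds chitin. Epidermal cells secrete these proteins together with chitin fibres into the layered cuticle, which is first laid down late in embryogenesis, before the larva hatches. Different Cpr proteins are used at different stages and body regions, and a Cpr symbol holds the polytene band of its gene, so that genes of 1 band, such as Cpr62Ba, Cpr62Bb and Cpr62Bc, lie next to or near each other. A role of their own is given below only where it is known, since for most Cpr genes only the shared cuticle role is.

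The groups were untreated wild type (wt, 5 arrays), heat-shocked wild type (hswt, 3 arrays), heat-shocked hsp-otd (hsotd, 4 arrays) and heat-shocked hsp-Otx2 (hsOTX2, 4 arrays). Wild type was the Oregon-R stock. The hsp-otd embryos came from line 5A, which carries the fly head-patterning homeobox gene orthodenticle (otd) behind a heat shock promoter, and the hsp-Otx2 embryos carried human Otx2, a related homeobox gene, behind such a promoter. The 3 heat-shocked groups had the same regime: embryos were collected for 12 h, kept 4 h longer, held at 37 °C for 25 min and left to recover at 25 °C for 25 min. The embryos were at stages 10 to 17, a span that begins before cuticle secretion and runs into it. For RNA, 200 mg of whole embryos were pooled. Collection and ageing times are stated for the heat-shocked groups only, and a difference in age or handling between these and untreated wild type cannot be told apart from heat shock. A heat shock promoter acts in nearly all cells, each transgene is represented by 1 line, and no heat-shocked line with an empty construct is among the groups, so a line's background cannot be told apart from its transgene. Whether replicates came from separate embryo collections is not stated, so p-values measure only the spread between these arrays, which may be technical. The gene of the fly transgene, oc (otd), read 6213 to 6448 in hsp-otd, 96.6 to 127 in hsp-Otx2, from the floor of 20 to 235 in heat-shocked wild type and from the floor to 21.2 in untreated wild type.

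Values below are normalized probe set intensities, on a linear scale unless a log2 ratio is named. They were set to a floor of 20, since 18.3% to 24.6% of the deposited values of an array were negative. Levels are comparable between groups for 1 gene, not between genes. Untreated replicates 4 and 5 resembled each other (r = 0.958 over all probe sets) more than the other pairs of untreated arrays did (0.905 to 0.931). The counts against untreated wild type were thus also taken without replicates 4 and 5 and without the other 3. Pairs within heat-shocked wild type had r of 0.899 to 0.923, within hsp-otd 0.953 to 0.963 and within hsp-Otx2 0.944 to 0.96. The fit used 1 spread per probe set shared by all groups, so SE and p for comparisons with heat-shocked wild type may be too small. A gene passed a comparison at a limma adjusted p (Benjamini-Hochberg over all 12301 probe sets tested) below 0.05, and "rose", "fell" or "changed" is used only of genes that passed. Of the 58 genes, 52 had at least 3 arrays above the floor and were tested. Of those, 37 were above the floor on all 16 arrays and 15 on some. Each tested gene had signal in at least 2 of the 4 groups. The 6 others were Cpr47Ea, Cpr49Ae and Cpr57A, which were above the floor on 0 arrays, and Cpr72Ec, Cpr76Bb and Cpr100A, which were above it on 1 or 2. Over the 52 genes, 38 passed at least 1 of 6 comparisons and 14 passed none. In single comparisons 23.1% to 41.5% of all genes passed. The share of all genes that passed at least 1 was not counted, so the 38 cannot be set against it.

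**Figure D1:**
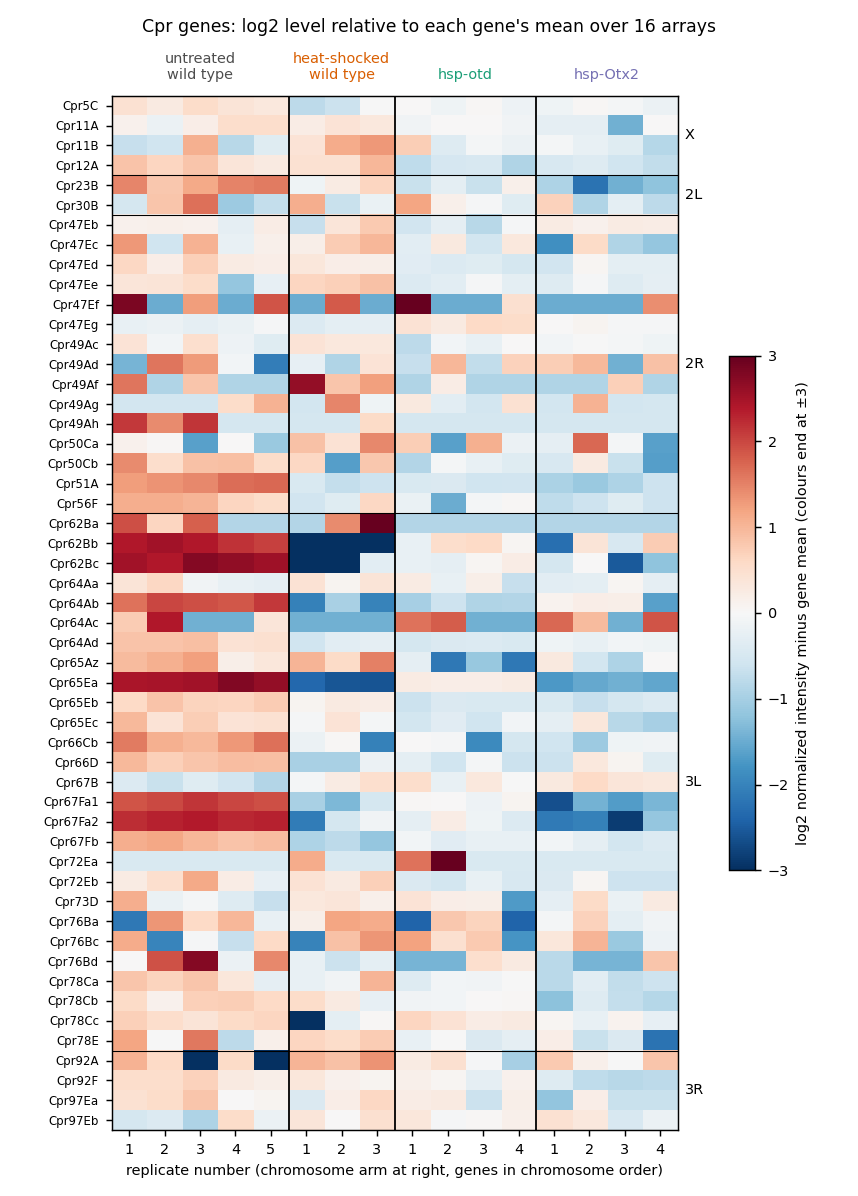
Log2 normalized intensity of the 52 tested Cpr genes (lines of the grid, in chromosome order with the arm at the right) on 16 arrays (columns, by group and replicate number), each relative to the gene's own mean over the 16 arrays. Red is above that mean and blue below; Cpr62Bb, Cpr62Bc, Cpr64Ab, Cpr65Ea, Cpr67Fa1 and Cpr67Fa2 are red on all 5 untreated arrays and blue or pale on the heat-shocked ones.

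Heat-shocked wild type was first compared with untreated wild type, groups of 1 stock that differ in heat shock and possibly in age or handling. Of the 52 tested Cpr genes, 16 fell (30.8%) and 2 rose (3.85%). Over all 9728 genes tested, 13.2% fell and 9.89% rose (23.1% in either direction). The arrays of both groups did not overlap for 17 Cpr genes that were lower and 3 that were higher, which was so for 11.5% and 9.27% of all genes. The median log2 ratio of the Cpr genes was -0.20, beside 0 for all genes, and 13 of the 16 fell to 1/2 or less. In RNA of whole embryos, fewer epidermal cells and less RNA per cell cannot be told apart. The direction was kept without normalization, where 17 Cpr genes fell and 0 rose (9.66% and 1.51% of all genes, with a median log2 ratio of -0.40), and with median scaling, where 17 fell and 2 rose (14.4% and 6.65% of all genes). Without untreated replicates 4 and 5 the counts were 15 lower and 2 higher, beside 9.58% and 8.97% of all genes. Without untreated replicates 1, 2 and 3 they were 14 lower and 6 higher, beside 15.1% and 12.6% of all genes.

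**Figure D2:**
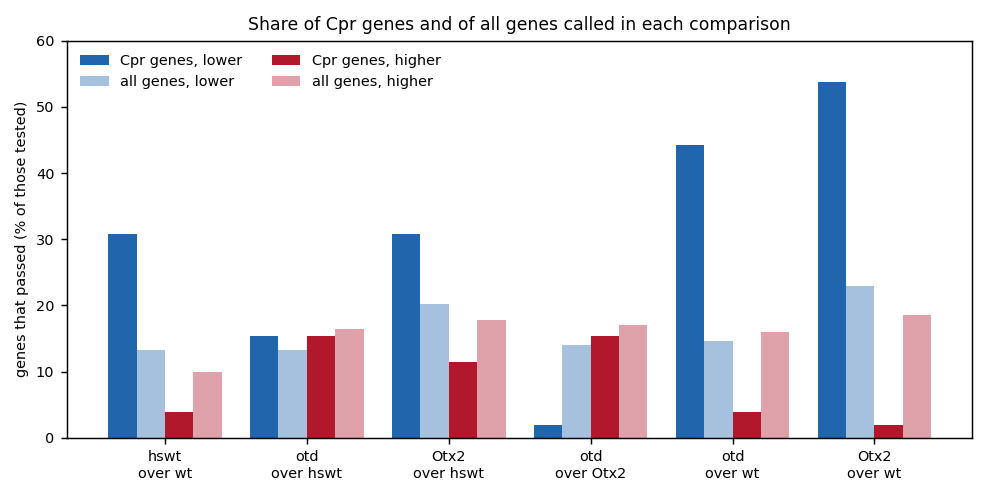
Share of tested genes that fell (blue) or rose (red) in each of 6 comparisons, in percent, for the 52 Cpr genes (dark bars) and for all 9728 genes (pale bars). In each of the 3 comparisons over untreated wild type the dark blue bar is above the pale one, at 30.8% beside 13.2% in heat-shocked wild type, 44.2% beside 14.6% in hsp-otd and 53.8% beside 23% in hsp-Otx2.

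Cpr65Ea of the 65E band had the smallest adjusted p of the Cpr genes in this comparison. It read 11985, 12177, 12471, 14898 and 13590 on the untreated arrays and 425, 368 and 361 after heat shock of wild type. Every heat-shocked wild-type array was below every untreated one, and the log2 ratio was -5.08 ± 0.09 (SE, limma adjusted p = 1.74e-16), a 33.8-fold drop. Cpr65Eb read 1697, 2034, 1783, 1760 and 1910 in untreated wild type and 1198, 1358 and 1323 after heat shock, again with no overlap, and fell by 0.51 ± 0.09 on the log2 scale (limma adjusted p = 0.000858). Cpr65Ec had a log2 ratio of -0.49 ± 0.24 and did not pass (limma adjusted p = 0.165).

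Of the 62B band, Cpr62Bb and Cpr62Bc fell and Cpr62Ba did not pass. Cpr62Bb read 1321, 1422, 1314, 1129 and 1041 on untreated arrays and was below the floor on all 3 heat-shocked wild-type arrays. It was thus at least 61.9-fold lower, from a geometric mean of 1240 to no more than 20 (limma adjusted p = 1.43e-07). Cpr62Bc read 1964, 1807, 2314, 2159 and 1984 in untreated wild type, and in heat-shocked wild type 21.5, below the floor, and 273. The groups did not overlap, but the size of its drop, -5.38 ± 0.67 in log2, depends on the floor and on 1 array: it was -6.62 without heat-shocked wild-type replicate 3, and -4.79 and -4.73 without replicates 1 and 2. Cpr62Ba was dim, with 3 of 5 untreated arrays and 2 of 3 heat-shocked wild-type arrays above the floor, and its log2 ratio of 0.96 ± 0.83 did not pass (limma adjusted p = 0.448).

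Cpr64Ab and Cpr64Ad were the members of the 64A band that fell. Cpr64Ab read 5762, 7457, 7202, 6762 and 8178 on untreated arrays and 461, 955 and 469 after heat shock. The log2 ratio was -3.57 ± 0.34 (limma adjusted p = 8.81e-07), with no overlap. Cpr64Ad read 11184, 11184, 11510, 8297 and 8620 on untreated arrays and 4096, 4955 and 5143 after heat shock. Its groups did not overlap either, and it fell by 1.10 ± 0.11 on the log2 scale (limma adjusted p = 1.51e-06). Cpr64Aa, at 944 to 1751 and 1203 to 1529, had overlapping groups (log2 ratio 0.22 ± 0.22), and Cpr64Ac was at the floor on the 3 heat-shocked wild-type arrays and on 2 of 5 untreated ones.

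All 3 genes of the 67F band fell. Cpr67Fa1 read 2087, 2243, 2497, 2266 and 2163 on untreated arrays and 289, 224 and 390 after heat shock, a log2 ratio of -2.94 ± 0.24. Cpr67Fa2 read 1430, 1537, 1613, 1490 and 1546 and then 72.1, 214 and 289, a log2 ratio of -3.21 ± 0.39, or -2.61 without heat-shocked wild-type replicate 1. Cpr67Fb read 999, 1053, 946, 854 and 901 and then 248, 275 and 210, a log2 ratio of -1.96 ± 0.14. None of the 3 had overlapping groups, and their limma adjusted p was 1.44e-07, 1.33e-05 and 3.77e-08. Cpr67Fa1 and Cpr67Fa2 are close copies, and their probe sequences were not used here, so whether each probe set sees only 1 of them, and with it their separate values, is uncertain.

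Genes that are alone in their band fell as well. Cpr51A read 7314, 7800, 8277, 9687 and 10029 on untreated arrays and 2208, 1859 and 1974 after heat shock, and fell 4.26-fold (log2 -2.09 ± 0.11, limma adjusted p = 9.63e-10). Cpr5C read 3864, 3424, 4131, 3689 and 3528 and then 1651, 1805 and 2816, and fell by 0.87 ± 0.13 on the log2 scale. Neither had overlapping groups. Cpr66Cb had geometric means of 1040 and 255 and fell by 2.03 ± 0.46, or by 1.38 without heat-shocked wild-type replicate 3, which read 103 beside 374 and 432. Cpr66D was measured by 2 probe sets made from gene models that are now 1 gene. The one that stands for it here read 1574, 1314, 1435, 1517 and 1495 and then 408, 412 and 709. The other read 2100, 2222, 1910, 2291 and 2123 and then, on 2 of 3 arrays, below the floor, with 58.1 on the third. Both had no overlap and passed, but with log2 ratios of -1.57 ± 0.22 and -6.22 ± 0.30 the size of the change in Cpr66D differed with the probe set.

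The other 3 genes that fell did not pass under every other setting. Cpr78Cc read 823 to 1040 on untreated arrays and 43.7, 517 and 648 after heat shock, and its log2 ratio moved from -1.95 ± 0.57 to -0.70 without heat-shocked wild-type replicate 1 and to -2.65 without replicate 3. It did not pass when only the groups compared were fitted (limma adjusted p = 0.105), nor without untreated replicates 4 and 5 (0.0684) or 1, 2 and 3 (0.0847). Cpr23B fell by 1.04 ± 0.29 on the log2 scale (limma adjusted p = 0.0172), but had -0.85 and an adjusted p of 0.0805 without heat-shocked wild-type replicate 1. Cpr56F had a log2 ratio of -0.98 ± 0.31 (adjusted p = 0.0314) with overlapping groups, and its adjusted p ran from 0.0519 to 0.143 without any one of untreated replicates 1, 2 and 3 or heat-shocked wild-type replicates 1 and 2.

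The 2 genes that rose were Cpr67B and Cpr11B. Cpr67B read 637, 533, 655, 568 and 462 on untreated arrays and 807, 1003 and 1191 after heat shock, with no overlap. Its log2 ratio was 0.80 ± 0.17 (limma adjusted p = 0.00252), and 0.33 (adjusted p = 0.455) without normalization. Cpr11B read 252, 267, 844, 226 and 313 and then 539, 883 and 1006, so that untreated replicate 3 lay among the heat-shocked arrays. Its log2 ratio of 1.24 ± 0.38 (adjusted p = 0.0264) had an adjusted p between 0.0536 and 0.111 without any one of untreated replicates 1 and 4 and heat-shocked wild-type replicates 2 and 3.

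Of the 18 calls, 13 passed under each of 18 other settings, and all 13 were genes that fell. They were Cpr5C, Cpr51A, Cpr62Bb, Cpr62Bc, Cpr64Ab, Cpr64Ad, Cpr65Ea, Cpr65Eb, Cpr66Cb, Cpr66D, Cpr67Fa1, Cpr67Fa2 and Cpr67Fb. Those settings include no normalization, under which 9.66% of all genes fell and 1.51% rose, so rises were less likely to pass all of them. By chromosome arm, 12 of the 27 tested Cpr genes of 3L fell and 1 rose, and 2 of the 15 of 2R fell. On X 1 of 4 fell and 1 rose, on 2L 1 of 2 fell, and on 3R 0 of 4 passed. Shares of all genes by arm were not counted. The 47E band with 6 tested genes, the 49A band with 5 and the 76B band with 3 held 0 genes that passed. Their median log2 ratios were -0.04, 0.28 and 0.26. Cpr47Eg, the 47E gene of highest mean, read 2962 to 3463 in untreated and 2657 to 2943 in heat-shocked wild type, without overlap but below the threshold for a call.

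**Figure D3:**
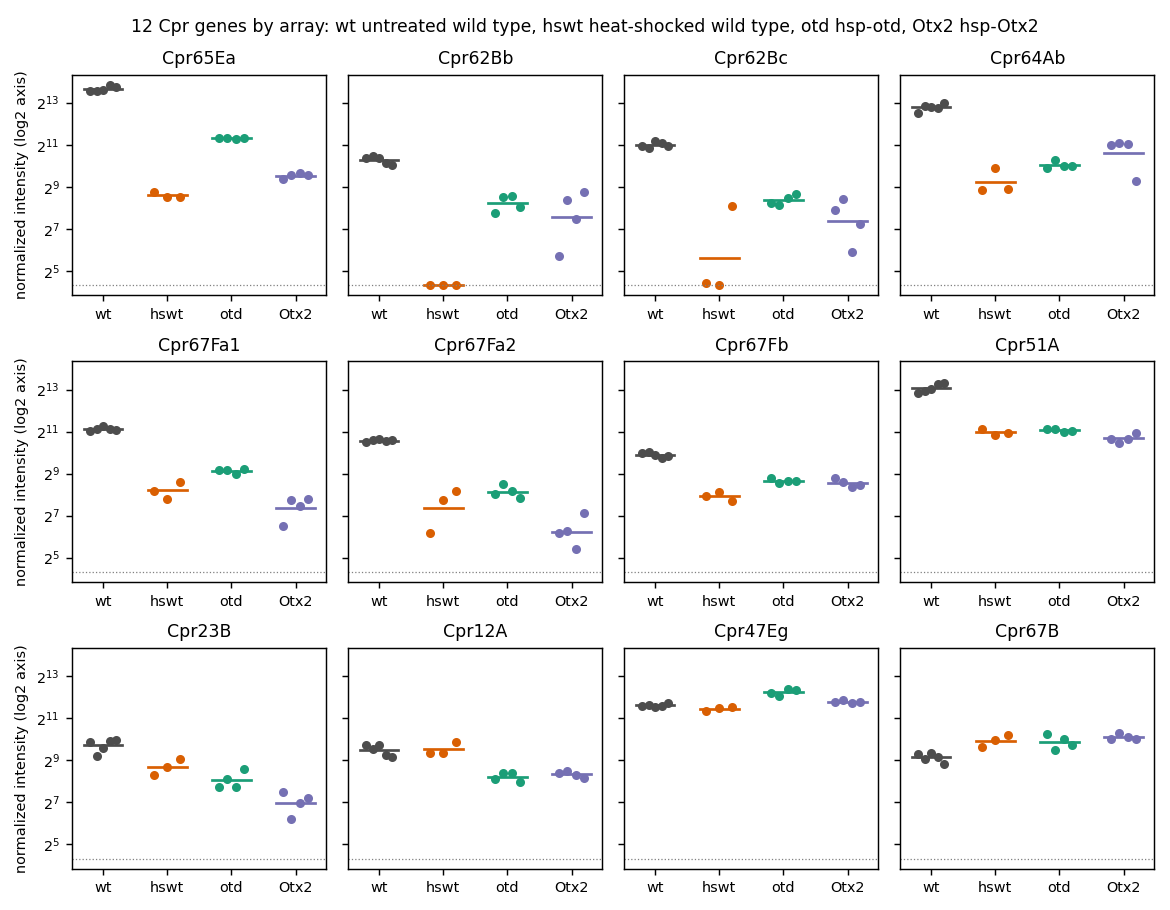
Normalized intensity (log2 axis) of 12 Cpr genes on each array; points are arrays, horizontal bars geometric means, and the dotted line the floor of 20. Groups are untreated wild type (wt), heat-shocked wild type (hswt), hsp-otd (otd) and hsp-Otx2 (Otx2). Cpr65Ea is at 11985 to 14898 in untreated wild type, 361 to 425 in heat-shocked wild type, 2511 to 2595 in hsp-otd and 663 to 801 in hsp-Otx2, and Cpr47Eg is highest in hsp-otd.

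Each line was next compared with heat-shocked wild type, which had the same regime without a transgene. In hsp-otd, 8 of 52 Cpr genes rose (15.4%) and 8 fell (15.4%). Over all genes 16.4% rose and 13.2% fell (29.6% in either direction), so that both shares were near those of all genes. Groups did not overlap for 7 Cpr genes that were higher and 12 that were lower, beside 20.7% and 17.8% of all genes. The median log2 ratio was -0.26, beside 0 over all genes. Those counts depend on the scaling: without normalization 14 rose and 2 fell (30.1% and 1.86% of all genes, whose median stood at 0.71), and with median scaling 10 rose and 8 fell (22.4% and 7.96% of all genes, with a median of 0.19). The Cpr median lay below that of all genes by a similar step each time, -0.26, -0.24 and -0.26. Without heat-shocked wild-type replicate 3, 8 rose and 5 fell, beside 13.9% and 9.85% of all genes.

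In hsp-Otx2, 6 of 52 Cpr genes rose (11.5%) and 16 fell (30.8%), beside 17.8% and 20.2% of all genes (38% in either direction). Groups did not overlap for 5 Cpr genes that were higher and 18 that were lower, beside 19.6% and 22.9% of all genes. The median log2 ratio was -0.50, beside -0.13. This split too depends on the scaling, with 10 higher and 0 lower without normalization (17.1% and 2.29% of all genes, with a median of 0.29) and 9 higher and 15 lower with median scaling (19.9% and 12.9%, with a median of 0). Without heat-shocked wild-type replicate 3, 9 rose and 8 fell, beside 15.7% and 17.2% of all genes. The comparisons of both lines use the same 3 heat-shocked wild-type arrays, and these are also the arrays compared with untreated wild type above, so that the values are given side by side and no agreement between them is counted.

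Cpr65Ea read 2595, 2517, 2511 and 2584 in hsp-otd and 663, 759, 801 and 742 in hsp-Otx2, beside 361 to 425 in heat-shocked wild type. No group overlapped another. It rose by 2.73 ± 0.09 on the log2 scale in hsp-otd (limma adjusted p = 6.78e-12) and by 0.95 ± 0.09 in hsp-Otx2 (limma adjusted p = 5.77e-07). Cpr62Bb had no heat-shocked wild-type array above the floor. It read 215, 361, 381 and 260 in hsp-otd and 52.2, 326, 179 and 427 in hsp-Otx2. Every array of both lines was above the floor, so it was at least 14.8-fold higher in hsp-otd (adjusted p = 3.62e-05) and at least 9.49-fold higher in hsp-Otx2 (adjusted p = 9.52e-05). In hsp-Otx2 its log2 ratio of 3.25 ± 0.50 was 3.87 without replicate 1. Cpr67Fb read 447, 371, 404 and 401 in hsp-otd and 442, 390, 324 and 353 in hsp-Otx2, above the 210 to 275 of heat-shocked wild type, and rose by 0.74 ± 0.15 and 0.62 ± 0.15.

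Cpr47Eg also rose in both lines. It read 4796, 4271, 5404 and 5175 in hsp-otd and 3571, 3786, 3448 and 3483 in hsp-Otx2, beside 2657, 2902 and 2943 in heat-shocked wild type. The 3 groups did not overlap, and the log2 ratios were 0.79 ± 0.08 (limma adjusted p = 4.16e-06) and 0.33 ± 0.08 (limma adjusted p = 0.00417). Cpr64Ab read 2007, 2160, 2105 and 610 in hsp-Otx2, so that replicate 4 lay within the 461 to 955 of heat-shocked wild type while the other 3 were above it. It rose there by 1.38 ± 0.35 (adjusted p = 0.0055). In hsp-otd it read 936, 1218, 1000 and 1025 and did not pass. These 5 genes, Cpr47Eg, Cpr62Bb, Cpr64Ab, Cpr65Ea and Cpr67Fb, were the ones of 22 called in hsp-Otx2 that passed under all 15 other settings. Of the 16 that fell there, 0 did. Those settings include no normalization, under which 17.1% of all genes rose and 2.29% fell. Passing all of them is thus not an equal measure for rises and falls.

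Of the 16 called in hsp-otd, 5 passed under all other settings: Cpr47Eg, Cpr62Bb, Cpr65Ea and Cpr67Fb, which rose, and Cpr65Az, which fell. Here too no normalization is among the settings, and 30.1% of all genes rose and 1.86% fell under it. Cpr65Az was dim. It read 177, 130 and 250 in heat-shocked wild type and, in hsp-otd, 73.2, 40.1 and below the floor on replicates 2 and 4, and the groups did not overlap. The log2 ratio of -2.44 ± 0.51 (limma adjusted p = 0.00219) depends on the floor. In hsp-Otx2 it read 46.1 to 108 and did not pass.

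Cpr12A fell in both lines when values were normalized. It read 652, 653 and 953 in heat-shocked wild type, 280, 334, 339 and 252 in hsp-otd and 343, 365, 313 and 284 in hsp-Otx2, with each line below every heat-shocked wild-type array. The log2 ratios were -1.31 ± 0.19 (limma adjusted p = 0.000114) and -1.19 ± 0.19 (limma adjusted p = 0.000138), or -0.53 and -0.68 with adjusted p of 0.187 and 0.133 without normalization. Cpr65Eb fell with it, from 1198 to 1358 down to 721, 843, 818 and 826 in hsp-otd and 826, 694, 780 and 857 in hsp-Otx2, with no overlap. Its log2 ratios of -0.69 ± 0.10 and -0.71 ± 0.10 became 0.16 and -0.11 without normalization, so that in hsp-otd the sign turned. Cpr47Ed in hsp-otd (-0.66 ± 0.16) likewise turned to 0.13 without normalization, and Cpr47Ee, at -1.01 ± 0.30, had -0.20 (adjusted p = 0.656) without normalization and -0.94 (adjusted p = 0.0608) without heat-shocked wild-type replicate 3.

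The remaining calls in hsp-otd were lost when some 1 array was left out. Cpr62Bc rose from 21.5, below the floor and 273 to 295, 284, 355 and 402. The log2 ratio of 2.76 ± 0.70 was 3.99 without heat-shocked wild-type replicate 3, 2.16 without replicate 1, and 2.11 with an adjusted p of 0.05 without replicate 2. Cpr67Fa1 rose from 224 to 390 up to 577, 575, 510 and 601 with no overlap (0.94 ± 0.25, adjusted p = 0.00962), and had an adjusted p of 0.0536 without heat-shocked wild-type replicate 2. Cpr78Cc rose by 1.76 ± 0.60, but by 0.52 without heat-shocked wild-type replicate 1, and did not pass without any one of the 4 hsp-otd arrays (adjusted p 0.0564 to 0.0754). Cpr5C had a log2 ratio of 0.43 ± 0.14 with overlapping groups and an adjusted p between 0.0607 and 0.138 without hsp-otd replicate 1 or 3 or heat-shocked wild-type replicate 1 or 2. The calls of Cpr49Ac, Cpr49Af and Cpr72Eb, all lower, were lost without 5, 3 and 3 single arrays in turn, with adjusted p up to 0.101, 0.0962 and 0.0966.

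In hsp-Otx2, 6 of the genes that fell lost the call under no setting but the omission of normalization. They were Cpr12A and Cpr65Eb, described above, with Cpr23B (-1.69 ± 0.31), Cpr47Ee (-1.02 ± 0.30), Cpr78Cb (-0.99 ± 0.26) and Cpr92F (-0.87 ± 0.18). Cpr23B read 316, 410 and 535 in heat-shocked wild type and 183, 74.6, 128 and 150 in hsp-Otx2. Cpr92F read 513, 444 and 431 and then 313, 240, 230 and 235. Neither gene's groups overlapped. The other 10 lower calls were lost when some 1 array was left out, with adjusted p up to 0.0596 for Cpr47Ed, 0.0681 for Cpr11B, 0.0721 for Cpr11A, 0.0877 for Cpr72Eb, 0.0885 for Cpr67Fa1, 0.109 for Cpr49Af, 0.13 for Cpr78E, 0.134 for Cpr47Ec, 0.208 for Cpr67Fa2 and 0.281 for Cpr62Ba. Heat-shocked wild-type replicate 3 was among the arrays that mattered for 8 of these 10, as it was not for Cpr47Ed and Cpr49Af. The call of Cpr5C, which rose by 0.40 ± 0.14, was lost without 4 single arrays, with adjusted p up to 0.157.

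The hsp-otd and hsp-Otx2 arrays were compared with each other to ask where the fly and human transgene lines differ under 1 regime. Of 52 Cpr genes, 8 were higher in hsp-otd (15.4%) and 1 was lower (1.92%). Over all genes 17% were higher and 14% lower (31% in either direction). Groups did not overlap for 9 Cpr genes that were higher and 2 that were lower, beside 22% and 18.9% of all genes, and the Cpr median log2 ratio was 0.10, beside 0.04. The counts were 8 and 0 with median scaling (17.6% and 12.4% of all genes) and 6 and 0 without normalization (11.4% and 4.26%).

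Cpr65Ea, at 2511 to 2595 in hsp-otd and 663 to 801 in hsp-Otx2, was 3.45-fold higher in hsp-otd (log2 1.79 ± 0.08, limma adjusted p = 1.91e-10). Cpr67Fa1 read 577, 575, 510 and 601 in hsp-otd and 90.9, 212, 178 and 219 in hsp-Otx2, a log2 ratio of 1.77 ± 0.23 (limma adjusted p = 1.57e-05). Cpr67Fa2 read 258, 361, 284 and 232 and then 71.1, 76.1, 43.1 and 138, a log2 ratio of 1.89 ± 0.37 (limma adjusted p = 0.000908). In each of these the lowest hsp-otd array was above the highest hsp-Otx2 array. Cpr67Fb of the same band overlapped, at 371 to 447 and 324 to 442, with a log2 ratio of 0.11 that did not pass.

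Cpr23B, at 217, 281, 217 and 384 in hsp-otd beside 183, 74.6, 128 and 150 in hsp-Otx2, had a log2 ratio of 1.07 ± 0.28 (limma adjusted p = 0.00821). Cpr92F, at 454, 421, 336 and 444 beside 313, 240, 230 and 235, had 0.70 ± 0.16 (limma adjusted p = 0.00328). Cpr47Eg had 0.45 ± 0.08 (limma adjusted p = 0.000193). The groups of these 3 did not overlap, and together with Cpr65Ea, Cpr67Fa1 and Cpr67Fa2 they were the 6 of 9 that passed under all 16 other settings. Cpr51A, at 2023 to 2243 and 1417 to 1973, had 0.39 ± 0.11, or 0.32 with an adjusted p of 0.0521 without hsp-Otx2 replicate 2. Cpr78Cb had 0.76 ± 0.24, with adjusted p between 0.0513 and 0.0773 without hsp-otd replicate 3 or 4 or hsp-Otx2 replicate 1 or 4. Cpr64Ad, the 1 gene lower in hsp-otd (-0.32 ± 0.10), turned to 0.01 without normalization, and its adjusted p was 0.0546 to 0.0742 without any one of hsp-otd replicates 1 and 4 and hsp-Otx2 replicates 1, 3 and 4.

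**Figure D4:**
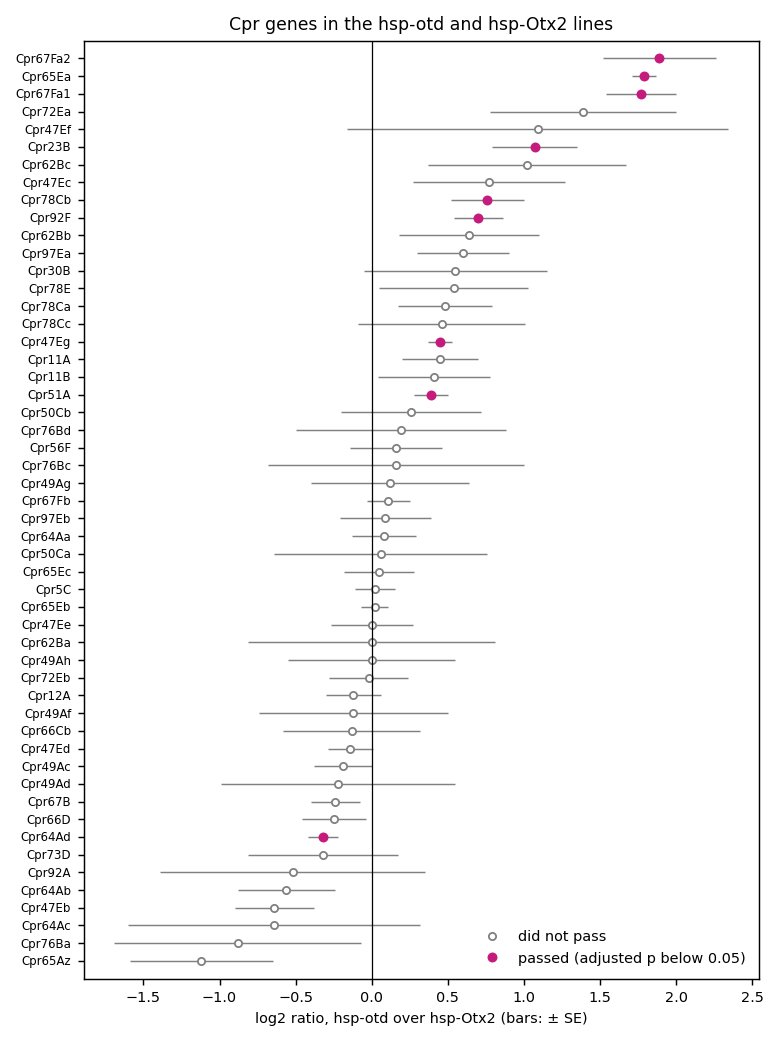
Log2 ratio of hsp-otd over hsp-Otx2 for the 52 tested Cpr genes (points, with bars of ± SE), in order of the ratio; filled points passed and open ones did not. Filled points are 8 above 0, led by Cpr67Fa2 at 1.89, Cpr65Ea at 1.79 and Cpr67Fa1 at 1.77, and 1 below 0, Cpr64Ad at -0.32 (0.01 without normalization).

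The probe sets of Cpr66D differed in this comparison. The one that stands for the gene read 660, 531, 774 and 512 in hsp-otd and 517, 998, 857 and 624 in hsp-Otx2, overlapped, and had a log2 ratio of -0.25 that did not pass. The other read 131, 108, 147 and 209 in hsp-otd and 445, 352, 385 and 371 in hsp-Otx2, did not overlap, and was lower in hsp-otd by a log2 ratio of -1.42 ± 0.29 (limma adjusted p = 0.00128). Against heat-shocked wild type that second probe set rose by 2.34 ± 0.32 in hsp-otd and by 3.76 ± 0.32 in hsp-Otx2, while the first did not pass in either line.

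Against untreated wild type, which both lines share with the first comparison, 23 Cpr genes fell (44.2%) and 2 rose (3.85%) in hsp-otd, beside 14.6% and 15.9% of all genes (30.5% in either direction). In hsp-Otx2, 28 fell (53.8%) and 1 rose (1.92%), beside 23% and 18.5% (41.5% in either direction). Groups did not overlap for 22 lower and 2 higher Cpr genes in hsp-otd (13.3% and 15.6% of all genes) and for 23 lower and 1 higher in hsp-Otx2 (18.9% and 17.4%). The medians were -0.60 and -0.99, with -0.02 and -0.14 over all genes. Here the lower side led under each scaling, with 14 lower and 2 higher for hsp-otd (3.87% and 12% of all genes) and 23 lower and 1 higher for hsp-Otx2 (9.82% and 12.7%) without normalization. Without untreated replicates 1, 2 and 3, the counts were 13 lower and 2 higher for hsp-otd (10% and 10.8% of all genes) and 20 lower and 1 higher for hsp-Otx2 (19.1% and 16.5%). Without replicates 4 and 5 they were 27 and 2 (15.8% and 17%), and 30 and 2 (23% and 19.4%).

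The genes that led differed in size between the groups. Cpr65Ea had geometric means of 13000 in untreated wild type, 384 in heat-shocked wild type, 2550 in hsp-otd and 739 in hsp-Otx2. Its log2 ratios to untreated wild type were -5.08 ± 0.09, -2.35 ± 0.08 and -4.13 ± 0.08 in that order of heat-shocked groups. Those of Cpr67Fa2 were -3.21 ± 0.39, -2.44 ± 0.36 and -4.34 ± 0.36. Cpr51A fell in all 3, from a geometric mean of 8560 to 2010, 2140 and 1640. For Cpr64Ab they were -3.57 ± 0.34, -2.76 ± 0.31 and -2.19 ± 0.31. Cpr23B had -1.04 ± 0.29, -1.66 ± 0.27 and -2.73 ± 0.27. Cpr12A, at geometric means of 714, 740, 299 and 325, fell in the lines by 1.26 ± 0.17 and 1.14 ± 0.17 and had a log2 ratio of 0.05 in heat-shocked wild type that did not pass.

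Cpr67B rose in both lines as well as in heat-shocked wild type, with geometric means of 567, 988, 938 and 1110 and log2 ratios of 0.80 ± 0.17, 0.73 ± 0.16 and 0.97 ± 0.16. It read 1216, 725, 1049 and 839 in hsp-otd and 1038, 1267, 1094 and 1056 in hsp-Otx2, all above the 462 to 655 of untreated wild type. Cpr47Eg rose over untreated wild type in hsp-otd, by 0.64 ± 0.07 (limma adjusted p = 4.28e-06), where its arrays, 4271 to 5404, were all above the 2962 to 3463 of untreated wild type. In hsp-Otx2, at 3448 to 3786, it overlapped untreated wild type and had 0.18 ± 0.07 (limma adjusted p = 0.0544).

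**Figure D5:**
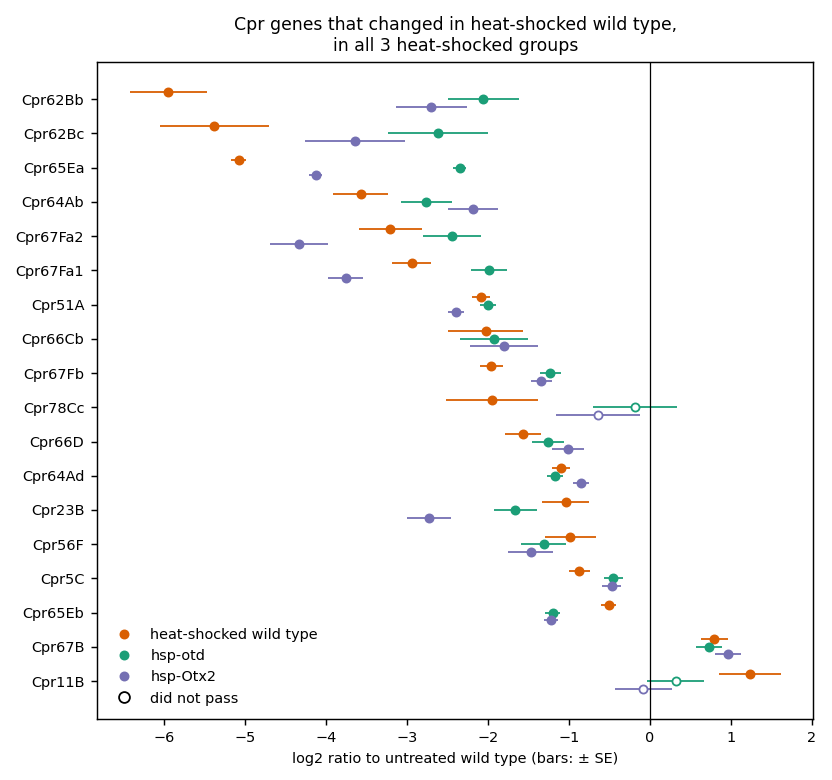
Log2 ratio to untreated wild type, with bars of ± SE, for the 18 Cpr genes that changed in heat-shocked wild type, shown in heat-shocked wild type (orange), hsp-otd (green) and hsp-Otx2 (purple); open points did not pass, and all ratios use the same 5 untreated arrays. Cpr65Ea is at -5.08, -2.35 and -4.13, and Cpr67B is right of 0 in all 3 groups. Cpr62Bb is drawn in heat-shocked wild type at -5.95, the value with all 3 arrays set to the floor.

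By band, the 8 bands with at least 3 tested genes held 30 of the 52 genes. Counts of falls in this and the next paragraph stand beside the shares of all genes that fell over untreated wild type. These were 13.2% in heat-shocked wild type, 14.6% in hsp-otd and 23% in hsp-Otx2. All 3 genes of 67F fell in each heat-shocked group relative to untreated wild type. Their median log2 ratios were -2.94 in heat-shocked wild type, -1.99 in hsp-otd and -3.76 in hsp-Otx2. Cpr67Fa1 and Cpr67Fa2 may not have been measured separately, so their falls may not be separate results. All 3 of 65E fell in both lines and 2 of 3 in heat-shocked wild type. In 62B and 64A, 2 genes fell in each of the 3 groups, out of 3 and 4. The 78C band held 1 gene that fell in heat-shocked wild type, 0 in hsp-otd and 2 in hsp-Otx2.

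Of 6 genes of 47E, 0 fell in heat-shocked wild type, 1 in hsp-otd (where Cpr47Eg rose) and 1 in hsp-Otx2, with Cpr47Ed as the one in both lines (-0.81 ± 0.14 and -0.67 ± 0.14). Cpr47Ed read 958, 721, 1032, 748 and 715 in untreated wild type, 494, 470, 485 and 436 in hsp-otd and 421, 653, 515 and 513 in hsp-Otx2, with both lines below every untreated array. Without normalization its adjusted p was 0.262 and 0.143. Of 5 genes of 49A, the 1 that passed in each line was Cpr49Ah, with adjusted p above 0.05 without single arrays. It was at the floor on every array of both lines and above it on 3 of 5 untreated arrays. It thus met the filter for testing through the untreated arrays, where it was higher. Without that filter it did not pass (limma adjusted p = 0.0664 in hsp-otd and 0.0521 in hsp-Otx2). Cpr49Ac, the 49A gene of highest mean, read 432 to 786 in untreated wild type and 697 to 743 after heat shock of wild type. In 76B, 1 of 3 genes, Cpr76Bd, fell in hsp-Otx2, with 2 of 4 arrays above the floor. Its call was lost without 6 single arrays. Cpr76Ba, the 76B gene of highest mean, passed no comparison. Its geometric means were 114 in untreated and 187 in heat-shocked wild type, 59.3 in hsp-otd and 109 in hsp-Otx2.

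The 2 probe sets with a pair of symbols were tested and did not pass any comparison. That of Cpr65Av and Cpr65Aw read 220, 174, 152, 318 and 260 in untreated wild type and, in heat-shocked wild type, below the floor, 128 and 122, a log2 ratio of -1.68 ± 0.69 (limma adjusted p = 0.0927). The groups did not overlap. That of Cpr49Aa and Cpr49Ab was near the floor, with geometric means of 25.7 to 34.7 in the 4 groups.

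Other cuticle genes were counted beside the Cpr family. They were read against the same shares of all genes, 13.2% lower and 9.89% higher in heat-shocked over untreated wild type. Those shares were 14.4% and 6.65% with median scaling, and 9.66% and 1.51% without normalization. Of 20 tested Tweedle genes, which encode another family of cuticle proteins, 17 fell and 0 rose in heat-shocked over untreated wild type (median log2 ratio -2.25), with the same counts under median scaling and without normalization, where 19 were tested. TwdlW (-7.55 ± 0.17), TwdlD (-3.18 ± 0.08), Twdlbeta (-3.08 ± 0.09) and TwdlV (-6.09 ± 0.26) had the smallest adjusted p. Of 6 Ccp84A genes, a cluster of related cuticle proteins, 5 fell and 0 rose, among them Ccp84Ac (-6.74 ± 0.18). Of 23 further cuticle and chitin-binding matrix genes 7 fell and 0 rose, among them obst-A (-1.35 ± 0.12) and Gasp (-0.68 ± 0.08), both secreted chitin-binding proteins. Of 23 genes of chitin synthesis and modification 8 fell and 1 rose, or 6 and 0 without normalization. In this list 2 genes, and in the cuticle and matrix list 1 gene, are in another list as well. Cht6, a chitinase, fell by 2.18 ± 0.15 and Cht5, another, rose by 1.33 ± 0.21. Of 8 tanning and pigment genes 1 fell, or 0 without normalization.

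In hsp-otd over heat-shocked wild type, 11 Tweedle genes rose and 0 fell, beside 16.4% and 13.2% of all genes. In hsp-Otx2 over heat-shocked wild type, 7 rose and 5 fell, beside 17.8% and 20.2%. Without normalization 6 rose and 0 fell, beside 17.1% and 2.29% of all genes. Between the lines, 9 Tweedle genes were higher and 2 lower in hsp-otd, beside 17% and 14%. Of the 23 chitin synthesis and modification genes, 0 were higher and 11 lower in hsp-otd than in hsp-Otx2. Without normalization 2 were lower, where 11.4% of all genes were higher and 4.26% lower.

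Genes listed for the epidermis were read as well, and whether they mark only cells that secrete cuticle was not tested. Without normalization, 1.51% of all genes rose and 9.66% fell in heat-shocked over untreated wild type. Over heat-shocked wild type, 30.1% rose and 1.86% fell in hsp-otd, and 17.1% rose and 2.29% fell in hsp-Otx2. Between the lines, 11.4% were higher and 4.26% lower in hsp-otd. Of 8 tested epidermis markers, which include the epidermal transcription factors grh and ovo and the junction genes shg, crb and cora, 4 rose and 0 fell in heat-shocked over untreated wild type (9.89% and 13.2% of all genes), or 0 and 0 without normalization. Their summed level was 9310 to 9930 in untreated wild type, 12770 to 13731 in heat-shocked wild type, 11706 to 12907 in hsp-otd and 8325 to 9122 in hsp-Otx2. None of the 8 was at the floor on all arrays of a group. The lists are not separate, as 2 of the 8 markers and 3 of 37 genes of epidermal regulation and apical matrix are in another list. Of these 37 genes, 15 rose and 6 fell, or 3 and 5 without normalization. Those that rose included the zona pellucida matrix genes neo (1.04 ± 0.07) and dyl (0.71 ± 0.06), and those that fell included Osi18 (-1.55 ± 0.12) and Osi19 (-0.94 ± 0.09). In hsp-Otx2 over heat-shocked wild type, 6 of the 8 epidermis markers fell and 0 rose (20.2% and 17.8% of all genes), or 1 and 0 without normalization. In hsp-otd 0 of the 8 passed, or 4 rose without normalization, where the median log2 ratio of all genes was 0.71. Of the 37 epidermal regulation and apical matrix genes, 18 fell and 0 rose in hsp-otd (13.2% and 16.4% of all genes), or 3 and 3 without normalization. In hsp-Otx2 15 fell and 1 rose, or 4 and 1 without normalization. Between the lines, 6 of the 8 epidermis markers were higher in hsp-otd and 0 lower (17% and 14% of all genes), or 4 and 0 without normalization.

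Markers of other tissues were counted in heat-shocked over untreated wild type, where 9.89% of all genes rose and 13.2% fell. Without normalization these shares were 1.51% and 9.66%. Of 14 midgut genes 6 rose and 2 fell, or 4 and 2 without normalization, and their summed level was 4505 to 6167 and 8509 to 10644. That sum was 6272 to 6750 in hsp-otd and 30552 to 32607 in hsp-Otx2. Of 14 sarcomere genes 2 rose and 2 fell, or 0 and 0 without normalization. Of 8 neuron genes 1 rose and 0 fell, which turned to 0 and 1 without normalization. Of 7 tracheal genes, 4 of which are in another list, 2 rose and 1 fell, which turned to 1 and 2. Of 9 genes of neuroblasts and dividing cells 3 fell and 0 rose, also without normalization. Sarcomere sums were 84864 to 91671 in untreated and 77617 to 85657 in heat-shocked wild type, and sums of the dividing-cell list were 13469 to 15781 and 11322 to 11617. The part of these and of the epidermal genes in the Cpr results was not tested.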

How the data were processed

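Whole-embryo RNA from 4 groups was hybridised to 16 arrays, 1 per replicate, and groups were taken from the sample titles. Each array has a deposited column of intensity on a linear scale, in whole numbers, negatives included. Biotin-labelled cRNA was made from 25 µg of RNA, per the labels' protocols. Image reading, probe summary and scaling are not given in the sources used here. Deposited array means ran from 460.2 to 1016.4. They were 460.2 to 650.2 in heat-shocked wild type, 785.9 to 997.8 in hsp-otd and 609.3 to 1016.4 in hsp-Otx2. Untreated replicates 1, 2 and 3 had 598.7 to 662.2, and replicates 4 and 5 had 950.6 and 999.1. Array scale and group thus cannot be told apart in hsp-otd over heat-shocked wild type. Precision is set by how many arrays a group has.

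Probe set stems were matched to a RefSeq table of fly gene names and synonyms, used for names only. Of 14038 probe sets other than 32 controls, 12582 had 1 symbol, 460 several and 996 none. A further 3 probe sets, whose stem led to a Cpr symbol and to another gene, were left out.

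Intensities were quantile normalized over 16 arrays, set to 20 where lower, and taken to log2. Probe sets above the floor on at least 3 arrays (12301) entered a linear model in limma (version 3.58.1, R 4.3.3), with 1 coefficient per group, lmFit and eBayes with a trend (12 residual and a median of 4.1 prior degrees of freedom). The fit was tested on simulated data. A gene (9728 in all) was read from its tested probe set of highest mean. A gene at the floor on all arrays of a group adds no spread there, so its SE and p can be too small, and its fold is given as "at least". Where only some arrays were above the floor, the fold depends on it.

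Genes named with values were drawn from the 12 Cpr genes of highest mean in untreated wild type and from genes whose probe sets disagree. They were also drawn from the 10 lowest and 10 highest log2 ratios among those that passed each comparison. The member of highest mean per band was added. Some log2 ratios of these genes are not printed. Up to 4 genes per comparison list are named by smallest adjusted p. Other genes named to complete a band, and the examples for Cpr genes that did not pass, were chosen after their values were seen. The members and lists were chosen with earlier results of these data known. Replicate numbers did not pair samples: over 21 same-numbered pairs, deviations from group means correlated at -0.071 to 0.12, and 2 were above 0.1. Comparisons were repeated with other scalings, floors, filters, group subsets, probe set choices, a replicate block and with each array left out, and, added after seeing the data, without untreated replicates 4 and 5 or 1, 2 and 3.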

Additional observations from a re-analysis of the deposited data

Results flagged for a closer look

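In groups of 4 or 5 arrays, 1 array of 6 gene and group pairs lay far from the rest, out of 102 pairs looked at. Chance alone gives about 1 in 20. Cpr11B read 843.6 on untreated replicate 3 and 226.3 to 313.3 on the other 4 arrays. Cpr78Cb read 263.1 on untreated replicate 2 and 360.2 to 399.8 on the others. Cpr56F read 223.3 on hsp-otd replicate 2 beside 541.6 to 636.9, and Cpr97Ea read 282.2 on hsp-otd replicate 3 beside 500.5 to 532.6. Cpr64Ab read 610 on hsp-Otx2 replicate 4 beside 2007.1 to 2160.1, and Cpr92F read 313.2 on hsp-Otx2 replicate 1 beside 229.6 to 239.7.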

How the results depend on the processing

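In this section, counts of Cpr genes that passed are of both directions together unless a direction is named. They moved by over 1.5 times in 3 cases. Without normalization they were 10 in place of 22 for hsp-Otx2 over heat-shocked wild type. For hsp-otd over untreated wild type they were 16 in place of 25, and 15 without untreated replicates 1, 2 and 3. That alternative was added after seeing the data. With counts by direction included, 22 moved under other settings and 9 with 1 array left out, some only from 1 to 0 or 2. Lower calls in hsp-Otx2 over heat-shocked wild type went from 16 to 0 without normalization, and to 8 without heat-shocked wild-type replicate 3. Without normalization 5 log2 ratios changed sign: in hsp-otd over heat-shocked wild type Cpr65Eb (0.16), Cpr47Ed (0.13) and Cpr49Ac (0.15), in hsp-Otx2 over heat-shocked wild type Cpr47Ed (0.02), and in hsp-otd over hsp-Otx2 Cpr64Ad (0.01). With each array left out in turn, counts ran from 16 to 18 for heat-shocked over untreated wild type, 12 to 15 for hsp-otd over heat-shocked wild type, 17 to 20 for hsp-Otx2 over it, 7 to 9 between the lines, and 21 to 26 and 25 to 30 for hsp-otd and hsp-Otx2 over untreated wild type. The cause was not tested. With replicate number as a block, which does not pair these samples, the 6 counts were 16, 15, 22, 8, 24 and 29 in the order of the report's comparisons. For genes near the floor, signal over background limits the size of a log2 ratio.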
